A study of Mus musculus with 12 samples.

Results

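Integrins are the cell surface receptors that tie cells to the extracellular matrix and to other cells, and laminins are the large matrix proteins that form the base of every basement membrane. Their genes were followed here through the differentiation of mouse embryonic stem (ES) cells towards cardiomyocytes. The genes were taken by name: every gene-level row of the array with 1 gene symbol that starts with Itga or Itgb, or with Lama, Lamb or Lamc and a number, without the integrin-binding proteins that share those letters. This gave 29 genes, 22 of integrins and 7 of laminins, among 23332 transcript clusters, of which 14996 carry 1 symbol. The RefSeq gene table lists 39 such symbols. Of the other 10, Itga1, Itga4 and Itgax share their row with the symbol of another gene and were not used at the gene level, and the rest were not analysed here. Itgax, a leukocyte alpha subunit, has 34 exon-level probe sets under its own symbol, whose mean ranged from 4.45 to 4.86 over the 6 samples.

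The study measured RNA at 3 stages on an Affymetrix mouse exon array, with 2 samples per stage, each summarised per gene and per probe set (a short stretch of an exon). Day 0 was undifferentiated ES cells, day 7 was embryonic bodies (aggregates of differentiating ES cells) and day 14 was cardiac bodies. All were grown in DMEM-based medium with 10% serum. The labels name no ES cell line, strain or genotype, and whether the 2 samples of a stage were grown apart is not stated. Each p-value therefore reflects only how far these samples lie from each other, which may be a technical spread. All levels below are log2 array signals as the authors deposited them. A change is a difference of stage means on that scale, with its standard error (SE) from limma, and it was called when its Benjamini-Hochberg adjusted p over all 23332 clusters was under 0.05. Very dim and very bright probe sets compress a change, and with so few arrays the precision is low. In samples of mixed cells, fewer cells of a type and less RNA per cell cannot be told apart.

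Each integrin is a pair of 1 alpha and 1 beta subunit, and each laminin is a trimer of an alpha, a beta and a gamma chain. In the early embryo a laminin basement membrane forms beneath the primitive endoderm and lets the neighbouring epiblast polarise, which embryonic bodies copy in culture. The beta1 subunit is the commonest partner of alpha subunits in ES cells and in heart muscle, where integrins sit at the costameres that fix the contractile fibrils to the basement membrane.

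The starts of the genes on which the results turn are shown here because 5 of them rose together at day 7, 1 fell, and 1 had the largest difference between day 14 and day 0. Each window runs from 250 bases before to 50 bases after the gene's start, from RefSeq, build GRCm38.p6, printed 5′ to 3′ on the gene's strand. Capitals mark the GC box GGGCGG or its reverse complement CCGCCC, searched on both strands. Of 10 genes looked up, 7 have a window in the table, while Itgal, Lama1 and Lama4 have none. The windows lie at chr2:12301895-12302194 (minus strand) for Itga8, chr2:83724147-83724446 (plus strand) for Itgav, chr8:128685404-128685703 (plus strand) for Itgb1, chr16:33829415-33829714 (plus strand) for Itgb5, chr12:31265043-31265342 (plus strand) for Lamb1, chr15:102231886-102232185 (minus strand) for Itgb7 and chr10:27616893-27617192 (minus strand) for Lama2.
Itga8: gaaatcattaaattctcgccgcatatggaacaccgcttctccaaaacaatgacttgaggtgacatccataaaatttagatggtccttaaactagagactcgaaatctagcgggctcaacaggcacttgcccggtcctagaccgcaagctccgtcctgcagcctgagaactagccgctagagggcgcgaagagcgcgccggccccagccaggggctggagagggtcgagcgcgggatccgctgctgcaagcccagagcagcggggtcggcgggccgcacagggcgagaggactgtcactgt
Itgav: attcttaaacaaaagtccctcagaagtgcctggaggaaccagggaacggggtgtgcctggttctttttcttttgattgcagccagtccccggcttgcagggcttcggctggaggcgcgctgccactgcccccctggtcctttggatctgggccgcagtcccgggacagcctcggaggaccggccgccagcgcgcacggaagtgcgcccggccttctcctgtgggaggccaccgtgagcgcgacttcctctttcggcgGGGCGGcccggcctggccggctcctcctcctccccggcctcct
Itgb1: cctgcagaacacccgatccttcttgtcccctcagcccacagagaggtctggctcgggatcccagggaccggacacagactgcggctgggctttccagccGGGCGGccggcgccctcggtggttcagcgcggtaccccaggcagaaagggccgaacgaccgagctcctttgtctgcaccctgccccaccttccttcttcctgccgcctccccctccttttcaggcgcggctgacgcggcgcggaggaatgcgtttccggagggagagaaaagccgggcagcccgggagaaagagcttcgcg
Itgb5: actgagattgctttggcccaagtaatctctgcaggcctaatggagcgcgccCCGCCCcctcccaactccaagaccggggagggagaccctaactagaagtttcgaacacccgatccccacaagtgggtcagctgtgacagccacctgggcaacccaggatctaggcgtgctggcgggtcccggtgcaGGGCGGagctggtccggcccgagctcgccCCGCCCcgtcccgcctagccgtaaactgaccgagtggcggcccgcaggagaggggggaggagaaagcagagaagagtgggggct
Lamb1: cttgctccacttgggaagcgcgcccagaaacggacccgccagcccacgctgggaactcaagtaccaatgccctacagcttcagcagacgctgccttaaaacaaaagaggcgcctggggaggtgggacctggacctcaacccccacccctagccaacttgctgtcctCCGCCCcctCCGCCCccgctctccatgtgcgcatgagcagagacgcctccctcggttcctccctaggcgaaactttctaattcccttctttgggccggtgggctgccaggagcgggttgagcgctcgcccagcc
Itgb7: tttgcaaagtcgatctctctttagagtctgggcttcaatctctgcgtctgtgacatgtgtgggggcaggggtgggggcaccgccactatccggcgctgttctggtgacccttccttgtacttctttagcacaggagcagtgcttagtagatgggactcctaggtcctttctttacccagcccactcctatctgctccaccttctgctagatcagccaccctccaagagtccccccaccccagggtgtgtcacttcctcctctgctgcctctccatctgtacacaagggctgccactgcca
Lama2: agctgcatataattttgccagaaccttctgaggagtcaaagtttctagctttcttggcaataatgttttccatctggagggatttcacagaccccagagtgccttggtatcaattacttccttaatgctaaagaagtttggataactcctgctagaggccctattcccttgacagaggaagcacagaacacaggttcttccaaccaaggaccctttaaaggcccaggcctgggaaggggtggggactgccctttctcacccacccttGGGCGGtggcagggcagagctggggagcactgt

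The windows of the 5 genes that rose at day 7 held 23 CpG dinucleotides for Itga8, 24 for Itgav, 27 for Itgb1, 20 for Itgb5 and 18 for Lamb1, against a median of 7 over all 32851 windows of the table. The window of Itgb7, which fell, held 5, and that of Lama2 held 1. The GC box occurred 1 time in Itgav, Itgb1 and Lama2, 2 times in Lamb1 and 3 times in Itgb5, and not in Itga8 or Itgb7; it is present in 35.66% of all windows. The letters TATAAA were in none of the 7 windows and in 13.62% of all windows on either strand. The window of Lama2 held a match to the CArG box, the motif bound by serum response factor, which 1.629% of all windows share. A match describes these letters only, and binding was not measured.

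The stages matched their labels by marker genes, with a limit at day 14. Of 12 pluripotency genes, 11 fell between day 0 and day 7 and 8 rose from day 7 to day 14. The log2 of the list's summed signal was 14.89 and 14.97 at day 0, 11.91 and 12.18 at day 7 and 14.12 and 14.36 at day 14. All 8 measured cardiomyocyte genes rose between day 0 and day 14. The replicates of day 7 were not alike: the median difference, replicate 1 minus replicate 2, was 0.93 over extraembryonic endoderm markers, 0.65 over smooth muscle and fibroblast markers and -0.85 over endothelial markers. Across all clusters 10.6% were called between day 7 and day 0, 3.32% between day 14 and day 0 and 3.13% between day 14 and day 7. Between day 14 and day 0, 614 clusters were higher and 160 lower, and with each sample centred on its median these numbers were 510 and 276. That centring moved the median change of all clusters at day 14 from -0.03 to -0.16.

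Of the 29 genes, 5 rose and 2 fell between day 0 and day 7, where 5.35% of all clusters rose and 5.28% fell. The genes that rose were Itga8, Itgav, Itgb1, Itgb5 and Lamb1, and those that fell were Itgal and Itgb7. The share called, 7 of 29, stood beside 10.6% of all clusters. At an unadjusted p under 0.05 there were 12. The median change of the 29 genes was -0.06, against -0.02 over all clusters, and 8 of the 29 moved by at least 1, as did 14.2% of all clusters. The samples of the 2 stages did not overlap for 18 of the 29 genes, compared with 56.5% of all clusters. Without any 1 sample of day 0 or without replicate 1 of day 7, none of the 7 calls remained. Without replicate 2 of day 7 only Lamb1 was called (adjusted p = 0.0368). Without either sample of day 14, Itga8, Itgav, Itgb1 and Itgb7 were still called. The smallest change of Itga8 with 1 sample left out was 1.99 and the largest was 2.51. Marker lists of other cell types moved at the same step: 7 rose and 1 fell of 11 endothelial genes, 4 rose and 1 fell of 10 smooth muscle and fibroblast genes, 5 of 11 extraembryonic endoderm genes rose and 4 of 8 epithelial genes rose. Their part in the 5 rises was not tested.

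**Figure D1:**
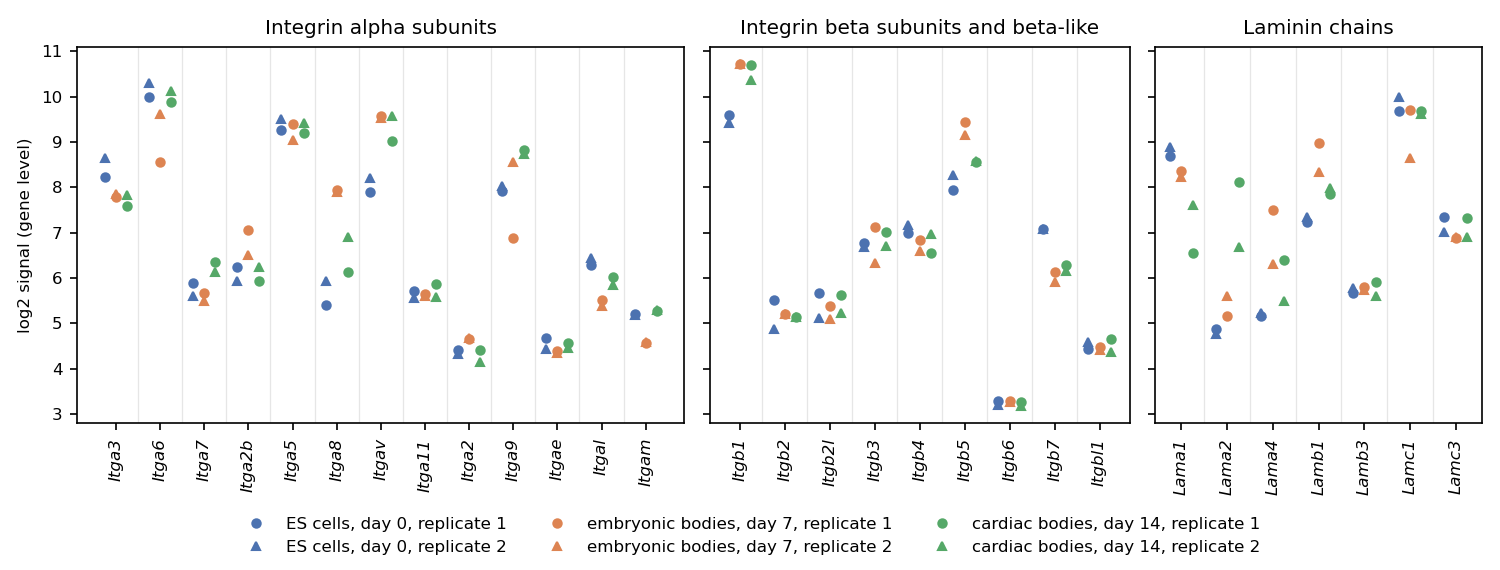
Log2 array signal of the integrin and laminin genes in each of the 6 samples, with the genes on the x axis in 3 panels, the stage shown by colour and the replicate by the symbol. Itga8, Itgav, Itgb1, Itgb5 and Lamb1 are higher in both samples of day 7 than in both of day 0, and Lama2 is highest at day 14 with its replicates at 8.12 and 6.68.

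Among the alpha subunits that bind the RGD peptide of fibronectin, vitronectin and related proteins, 2 of 4 rose at day 7. Of all clusters 5.35% rose at that step. Itga8 pairs with beta1 and binds nephronectin and tenascin C. Its signal was 5.41 and 5.93 at day 0, 7.94 and 7.90 at day 7 and 6.14 and 6.91 at day 14. Both day 7 samples lay above all others, and the groups of day 0 and day 7 did not overlap. The change from day 0 to day 7 was 2.25 ± 0.32 (SE; adjusted p = 0.0147), the largest of the 29 genes at that step. At day 14 the change from day 0 was 0.86 ± 0.32 (SE; adjusted p = 0.253), and from day 7 to day 14 it was -1.39 ± 0.32 (SE; adjusted p = 0.0936); neither was called.

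Itgav, the alpha chain of the vitronectin receptors, pairs with several beta subunits, beta5 among them. It had signals of 7.90 and 8.21 at day 0, 9.58 and 9.53 at day 7 and 9.02 and 9.56 at day 14. All 4 samples of days 7 and 14 were above both samples of day 0, while days 7 and 14 overlapped. It rose by 1.49 ± 0.25 (SE; adjusted p = 0.0218) at day 7. The day 14 difference from day 0 was 1.23 ± 0.25 (SE; adjusted p = 0.0687) and was not called. Between days 7 and 14 the difference was -0.26.

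Itga5 pairs with beta1 as the classical fibronectin receptor. It measured 9.26 and 9.50 at day 0, 9.39 and 9.05 at day 7 and 9.19 and 9.41 at day 14. Its 3 stages overlapped throughout, and the changes were -0.16 at day 7 and -0.08 at day 14, both against day 0. Itga2b, the platelet fibrinogen receptor chain, measured 6.24 and 5.95 at day 0, 7.06 and 6.52 at day 7 and 5.94 and 6.25 at day 14. Its day 7 samples were the highest, at a change of 0.70 ± 0.26 (SE; adjusted p = 0.165) that was not called.

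Of the 8 genes of beta subunits, 2 rose and 1 fell at day 7, where 5.35% of all clusters rose and 5.28% fell. Their median change was -0.0036, against -0.02 over all clusters. Itgb1, the partner of most of the alpha subunits described here, had signals of 9.60 and 9.42 at day 0, 10.71 and 10.72 at day 7 and 10.70 and 10.37 at day 14. Both later stages lay above day 0 in every sample. It rose by 1.21 ± 0.19 (SE; adjusted p = 0.0207) at day 7, and its difference at day 14 from day 0 was 1.03 ± 0.19 (SE; adjusted p = 0.0588), not called. Itgb5, which pairs with alphav, measured 7.93 and 8.27 at day 0, 9.44 and 9.16 at day 7 and 8.57 and 8.58 at day 14. Its samples were lowest at day 0, highest at day 7 and between them at day 14, with no overlap between any stages. The rise at day 7 was 1.19 ± 0.21 (SE; adjusted p = 0.0246), and the differences of day 14 were 0.47 from day 0 and -0.72 from day 7, neither called.

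Itgb7, a partner of alpha4 and alphaE on lymphocytes, ran the other way. Its signal was 7.08 and 7.09 at day 0, 6.14 and 5.91 at day 7 and 6.28 and 6.16 at day 14. Both day 0 samples were above the other 4. The change at day 7 was -1.06 ± 0.18 (SE; adjusted p = 0.0228), and at day 14 it was -0.86 ± 0.18 (SE; adjusted p = 0.0738) from day 0, not called. The other beta subunits were not called. Over the 6 samples Itgb3, the other partner of alphav and of alpha2b, ranged from 6.33 to 7.12, and Itgb4, the hemidesmosome subunit that pairs with alpha6, from 6.56 to 7.17. Itgb2, the shared partner of leukocyte alpha subunits, ranged from 4.88 to 5.52. Itgb2l, its close relative, ranged from 5.09 to 5.68 and Itgb6 from 3.17 to 3.30. Itgbl1, an integrin beta-like protein that is no receptor subunit, ranged from 4.36 to 4.66 and was not called either. Itgb6, Itgbl1, Itga2 and Itgae had mean signals under the 25th percentile of all clusters, where a fall is understated.

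**Figure D2:**
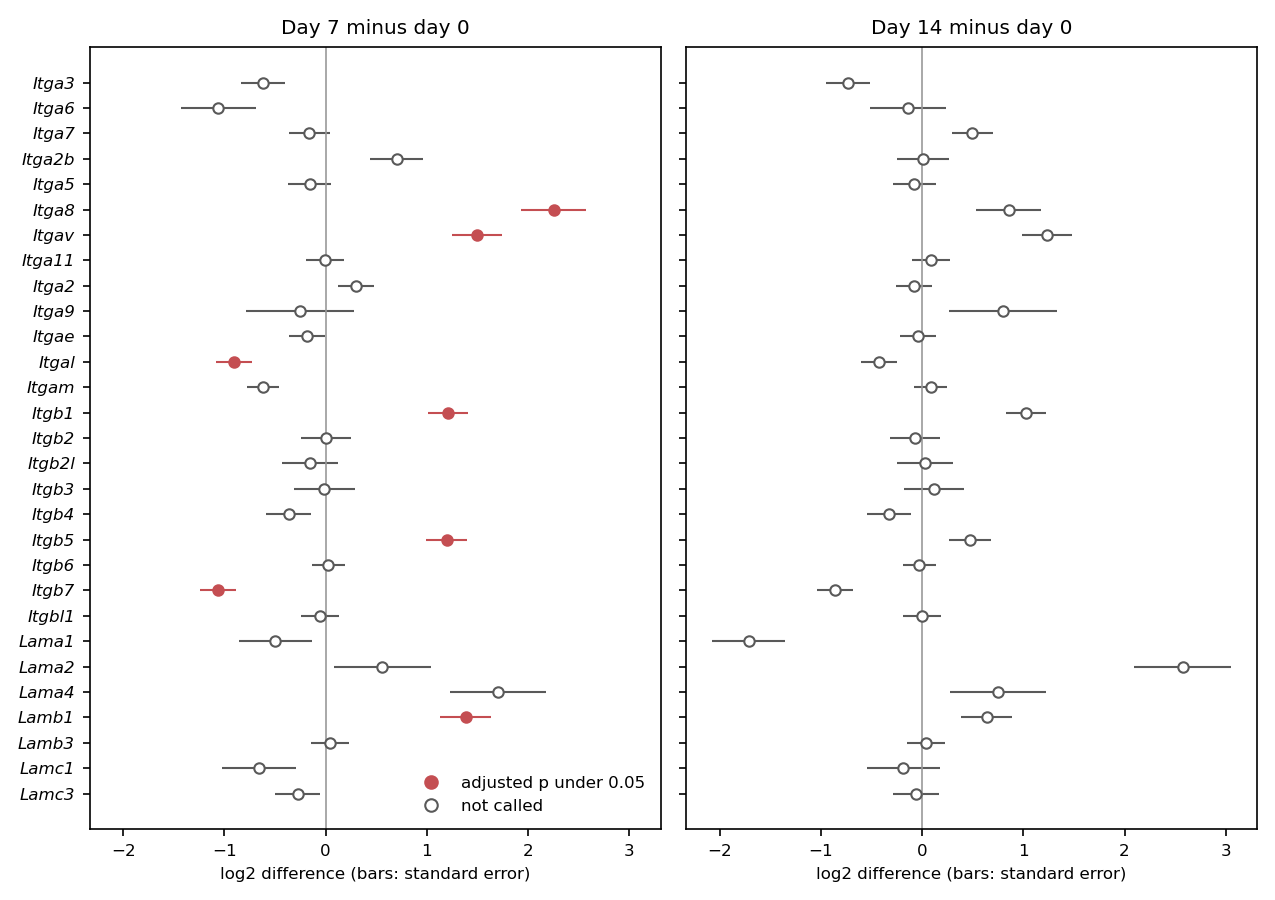
Change in log2 array signal of each of the 29 genes from day 0 to day 7 (left) and from day 0 to day 14 (right), with bars of 1 SE from limma and called changes filled in red. The 5 genes that rose and the 2 that fell are all on the left, and on the right the points farthest from 0 are Lama2 and Lama1, at 2.57 and -1.71.

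Of the 3 alpha subunits of leukocytes, 1 fell at day 7, where 5.28% of all clusters fell. Itgal, which with beta2 forms the ICAM receptor of lymphocytes, measured 6.28 and 6.43 at day 0, 5.51 and 5.38 at day 7 and 6.02 and 5.84 at day 14. Its day 0 samples were the highest, its day 7 samples the lowest, and no stages overlapped. It changed by -0.91 ± 0.18 (SE; adjusted p = 0.0341) at day 7, with -0.42 at day 14 against day 0 and 0.48 at day 14 against day 7, neither called. Itgam, the alpha chain of the myeloid complement receptor, measured 5.21 and 5.17 at day 0, 4.56 and 4.59 at day 7 and 5.27 and 5.29 at day 14. Its day 7 samples were below the other 4, but the change of -0.62 ± 0.16 (SE; adjusted p = 0.0713) was not called. The mean of its 31 probe sets was called at day 7 (-0.67, adjusted p = 0.0275, where 22.5% of genes were) and from day 7 to day 14 (0.80, adjusted p = 0.0251, where 10.9% were). Itgae, the partner of beta7 that binds E-cadherin, ranged from 4.34 to 4.67.

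Blood cell markers moved beside these genes in part. Of 9 measured, 4 fell at day 7 and none rose, where 5.28% of all clusters fell. The changes by limma were -4.29 ± 0.33 (SE; adjusted p = 0.00325) for Laptm5, -1.82 ± 0.26 (SE; adjusted p = 0.0158) for Cd68, -1.36 ± 0.21 (SE; adjusted p = 0.0180) for Coro1a and -0.95 ± 0.18 (SE; adjusted p = 0.0313) for Spi1. The log2 of the list's summed signal was 11.83 and 12.32 at day 0, 9.77 and 9.04 at day 7 and 10.62 and 10.99 at day 14. Most of the day 0 sum came from Laptm5, at 11.33 and 11.94. The marker that defines leukocytes, Ptprc, stayed between 3.06 and 3.32 in the 6 samples, and the macrophage receptor Csf1r between 4.81 and 5.22. Neither was called. Gata1 measured 6.22 and 5.95 at day 0 and 7.84 and 5.72 at day 7, a change of 0.70. Gp9 measured 5.33 and 5.29 at day 0 and 5.95 and 4.65 at day 7, and Pf4 changed by -0.01. Gata1, Gp9 and Pf4 were not called. Pluripotency genes fell at the same step, 11 of 12, and 8 rose from day 7 to day 14, beside 2.11% of all clusters. The part of blood cells or of pluripotent cells in the signals of Itgal and Itgb7 was not tested. The fall of both genes was uneven between the probe sets of each. For Itgal, 6 of 31 probe sets fell by at least 2.5 between day 0 and day 7 and the remaining 25 reached up to 0.53, with a median of -0.67. For Itgb7, 2 of 18 fell by 3.89 and 3.82, and the remaining 16 ranged from -1.77 to 0.18.

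None of the 3 alpha subunits that bind laminin was called by limma between any stages, while 2 at day 7 and 1 at day 14, both against day 0, and 1 between days 7 and 14 had an unadjusted p under 0.05. Itga6, which pairs with beta1 or beta4, is the main laminin receptor chain of ES cells. Its signal was 10.00 and 10.30 at day 0, 8.56 and 9.62 at day 7 and 9.89 and 10.13 at day 14. Both day 7 samples were below all others, but they lay 1.06 apart, and the change of -1.06 ± 0.37 (SE; adjusted p = 0.147) was not called. The difference between day 14 and day 0 was -0.14. Itga7, the laminin receptor chain of skeletal and heart muscle, measured 5.89 and 5.60 at day 0, 5.68 and 5.49 at day 7 and 6.35 and 6.13 at day 14. Its day 14 samples were the highest, at 0.50 ± 0.20 (SE; adjusted p = 0.291) above day 0 and 0.66 ± 0.20 (SE; adjusted p = 0.174) above day 7, neither called. Itga3, an epithelial laminin receptor chain, measured 8.23 and 8.65 at day 0, 7.78 and 7.85 at day 7 and 7.58 and 7.83 at day 14. It was highest at day 0, with differences of -0.62 ± 0.22 (SE; adjusted p = 0.144) at day 7 and -0.73 ± 0.22 (SE; adjusted p = 0.166) at day 14.

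The remaining alpha subunits bind other ligands. Itga9, a receptor chain for tenascin C and VCAM1, measured 7.93 and 8.03 at day 0, 6.88 and 8.57 at day 7 and 8.82 and 8.73 at day 14. Its day 7 replicates differed by 1.69, more than those of any other of the 29 genes at any stage, and no change was called. The collagen receptor chains Itga2 and Itga11 ranged from 4.16 to 4.68 and from 5.55 to 5.87 over the 6 samples, with none called. The replicates lay more than 1 apart for none of the 29 genes at day 0, for 4 at day 7 (Itga9, Itga6, Lama4 and Lamc1) and for 2 at day 14 (Lama2 and Lama1). The corresponding shares of all clusters were 7.41%, 5.60% and 7.74%.

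Between day 0 and day 14, none of the 29 genes was called by limma, either higher or lower, where 3.32% of all clusters were (2.63% higher and 0.686% lower). There were 8 at an unadjusted p under 0.05, and the smallest adjusted p was 0.0561. The samples did not overlap for 15 genes, compared with 46.0% of all clusters, and 4 moved by at least 1, as did 8.10% of all clusters. Between day 7 and day 14 none was called either, where 3.13% of all clusters were (2.11% higher and 1.02% lower); 9 had an unadjusted p under 0.05, the smallest adjusted p was 0.0931, and 16 did not overlap, compared with 48.1% of all clusters. These 2 comparisons and that of day 7 with day 0 share samples with each other.

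Among the 29 genes the differences farthest from 0 at day 14 were those of 2 laminin alpha chains, Lama2 and Lama1, and whether they were called depended on the setting. Lama2 is the alpha chain of muscle basement membranes, and its loss causes a congenital muscular dystrophy. Its signal was 4.89 and 4.77 at day 0, 5.15 and 5.61 at day 7 and 8.12 and 6.68 at day 14. Both day 14 samples were above the other 4, with replicates 1.44 apart. The difference from day 0 was 2.57 ± 0.48 (SE; adjusted p = 0.0561) and that from day 7 was 2.02 ± 0.48 (SE; adjusted p = 0.102), neither called. Without replicate 2 of day 14, which had the lower of the 2 signals, the differences were 3.29 from day 0 and 2.74 from day 7. That fit keeps only the higher sample of day 14. Replicate 2, at 6.68, lies nearer to the earlier stages.

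Lama1 is the alpha chain of the earliest embryonic laminin, made in large amounts by parietal endoderm. It measured 8.69 and 8.89 at day 0, 8.36 and 8.23 at day 7 and 6.55 and 7.61 at day 14. Both day 14 samples were below the other 4, and replicate 1 was the lower. The difference from day 0 was -1.71 ± 0.36 (SE; adjusted p = 0.0777) and that from day 7 was -1.22 ± 0.36 (SE; adjusted p = 0.165), neither called. Without replicate 2 of day 14 the difference of Lama1 from day 0 was -2.25. That fit keeps only the lower sample of day 14. Replicate 2, at 7.61, lies nearer to the earlier stages.

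In the probe sets of the same arrays, all 67 of Lama2 increased between day 0 and day 14, and their median change was 2.73. All 77 probe sets of Lama1 were lower, with a median of -1.79. The mean of a gene's probe sets, tested with limma over 14519 genes of which 10.4% were called, gave changes of 2.62 for Lama2 (adjusted p = 0.00408) and -1.67 for Lama1 (adjusted p = 0.0148). On that measure Itgb1 (1.07, adjusted p = 0.00889), Itgav (1.25, adjusted p = 0.0252) and Itgb7 (-1.04, adjusted p = 0.0144) were also called between day 0 and day 14. This is a second summary of the same arrays and not a replicate, and fewer features were tested. At the gene level the same 5 genes were called in the same directions when clusters with a mean signal under the 25th percentile were left out, and Itgav, Itgb1 and Lama2 were called with an intensity trend in limma.

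Cell type markers were set beside Lama2 and Lama1 at day 14. The log2 of the summed signal of the 8 cardiomyocyte genes was 8.99 and 9.09 at day 0, 9.51 and 9.58 at day 7 and 14.86 and 14.55 at day 14, higher in the replicate with more Lama2. That of the 7 measured skeletal muscle genes, none of them called, was 8.89 and 8.90 at day 0, 8.99 and 9.41 at day 7 and 9.74 and 9.11 at day 14. The extraembryonic endoderm list, which covers parietal and other endoderm, was at 9.76 and 9.79, then 13.29 and 11.69, then 12.81 and 12.60. Its sum was higher at day 14 than at day 0, opposite to Lama1. Of its 11 measured genes, 3 rose between day 0 and day 14, beside 2.63% of all clusters, and none fell. The 3 were Afp at 5.73, Gata6 at 3.89 and Gata4 at 3.04. The rest were not called, among them Ttr at 3.79, Dab2 at 2.49 and Plat at 1.67. Sox17 changed by 0.52, Thbd by 0.20, Foxa2 by 0.09, Amn by -0.09 and Sox7 by -0.64. The part of these cell types in the 2 laminin genes was not tested.

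Lama4 is the alpha chain of endothelial and muscle basement membranes. It measured 5.17 and 5.23 at day 0, 7.49 and 6.31 at day 7 and 6.39 and 5.50 at day 14. Every later sample was above both day 0 samples, but the day 7 replicates were 1.19 apart and the change of 1.70 ± 0.47 (SE; adjusted p = 0.0836) was not called. Of its 42 probe sets, 41 were higher at day 7 than at day 0, and their mean was called (1.83, adjusted p = 0.0141, where 22.5% of genes were). The higher day 7 sample was replicate 1. The endothelial list was higher in replicate 2, with log2 summed signals of 10.27 and 10.40 at day 0, 11.47 and 12.39 at day 7 and 10.26 and 10.55 at day 14. The summed signal of the extraembryonic endoderm list was higher in replicate 1, at 13.29 and 11.69 at day 7 and 12.81 and 12.60 at day 14. The smooth muscle and fibroblast list was also higher in replicate 1 at both stages. Its summed signal was 9.21 and 9.39 at day 0, 13.26 and 12.40 at day 7 and 13.09 and 12.89 at day 14. Within that list Acta2, Pdgfrb, Pdgfra, Dcn and Lum were higher in replicate 1 of day 7, but Tagln, Cnn1 and Tcf21 in replicate 2. The part of these cell types in Lama4 was not tested.

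Of the laminin beta and gamma chains, only Lamb1 was called. Lamb1, the beta chain of most embryonic laminins, measured 7.23 and 7.34 at day 0, 8.99 and 8.35 at day 7 and 7.85 and 7.99 at day 14. Both day 7 samples were above all others, and both day 14 samples were above day 0. The rise at day 7 was 1.38 ± 0.25 (SE; adjusted p = 0.0286), with 0.64 ± 0.25 (SE; adjusted p = 0.283) at day 14 against day 0, not called. Its day 7 replicates differed by 0.64, and replicate 1 was the higher one. The summed signals of the extraembryonic endoderm list and of the smooth muscle and fibroblast list were also higher there. That of the endothelial list was lower there. The part of these cell types in the rise was not tested. Lamc1, the gamma chain that joins Lamb1 in most laminins, measured 9.68 and 9.99 at day 0, 9.70 and 8.65 at day 7 and 9.68 and 9.62 at day 14. Its lowest value was in replicate 2 of day 7, the other 5 samples lay between 9.62 and 9.99, and the difference at day 7 of -0.66 ± 0.36 (SE; adjusted p = 0.329) was not called. Lamb3, the beta chain of epidermal laminin, ranged from 5.61 to 5.92 and Lamc3 from 6.89 to 7.34, with none called.

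**Figure D3:**
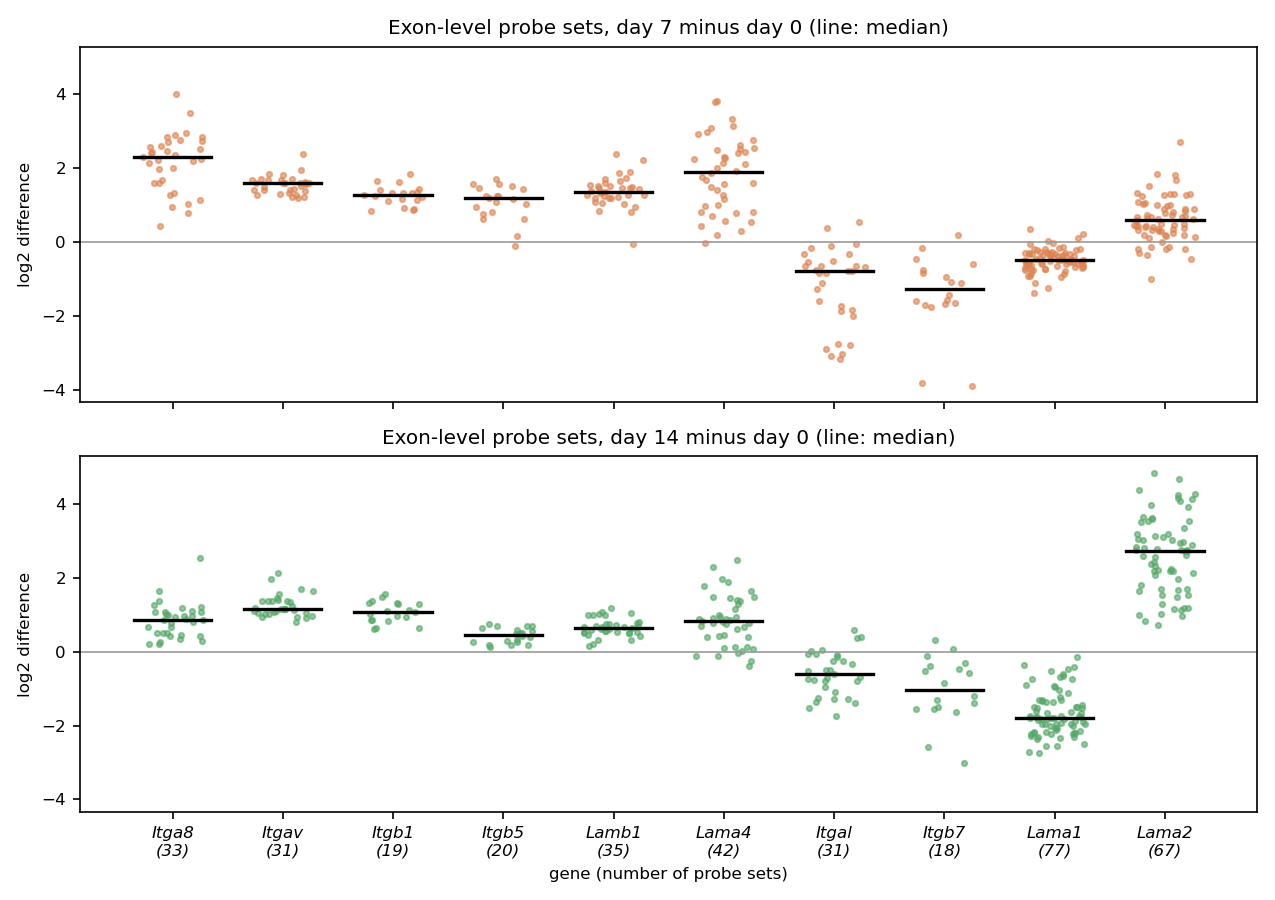
Change of every exon-level probe set in log2 signal for the genes that the results turn on, at day 7 (top) and day 14 (bottom) against day 0, with 1 point per probe set and a line at the median. All 33 probe sets of Itga8, all 31 of Itgav and all 19 of Itgb1 are above 0 at day 7, and all 67 of Lama2 are above 0 and all 77 of Lama1 below 0 at day 14.

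The probe sets of the genes that rose at day 7 moved one way. All 33 of Itga8, all 31 of Itgav and all 19 of Itgb1 were higher at day 7 than at day 0, as were 19 of 20 of Itgb5 and 34 of 35 of Lamb1. For the genes that fell, 2 of 31 of Itgal and 1 of 18 of Itgb7 were higher. At day 14 all probe sets of Itga8, Itgav, Itgb1, Itgb5 and Lamb1 were above day 0, though none of these genes was called there at the gene level. The genes were picked by their gene-level calls on the same arrays. The counts of probe sets are therefore no independent support.

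Alternative exon use was tested on each probe set after its gene's median over all probe sets was subtracted within the sample. Several integrins, Itga6, Itga3 and Itga7 among them, are known to have alternative cytoplasmic ends, and Itgb1 a form of its own in striated muscle. Of the 904 probe sets of the 29 genes, 294 in 9 genes could be tested between day 0 and day 7, 218 in 8 genes between day 0 and day 14 and 254 in 9 genes between day 7 and day 14, after the filters on dim genes and dim probe sets. None was called by limma in any comparison, and none was among all probe sets tested (0% of 95498, 99106 and 100843). At an unadjusted p under 0.05 there were 20, 13 and 13 of the members' probe sets. The smallest adjusted p of each was 0.436, 0.789 and 0.839. The usage of the 19 probe sets of Itgb1 differed from day 0 by -0.39 to 0.62 at day 7 and by -0.40 to 0.56 at day 14. The genomic positions of the probe sets were not used here, so none can be assigned to a named exon.

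Among the members' probe sets, the widest usage differences from day 0 to day 7 and from day 7 to day 14 were in Itga6, in 2 probe sets chosen after their values were seen. For probe set 5510623, the usage was -2.36 and -2.98 at day 0, -0.42 and -1.27 at day 7 and -1.82 and -2.62 at day 14. Its difference at day 7 was 1.83 ± 0.43 (SE; adjusted p = 0.447). Its own signal was 7.78 and 7.76 at day 0 and 8.36 and 8.44 at day 7, while the gene's median went from 10.14 and 10.74 to 8.78 and 9.70. This probe set's own signal was higher in both day 7 samples, and the gene's median was lower in both. For probe set 5594042, the usage was -1.32 and -1.72 at day 0, -1.94 and -1.31 at day 7 and 0.03 and -0.51 at day 14. Both day 14 samples were the highest, at a difference of 1.28 ± 0.31 from day 0 (SE; adjusted p = 0.798) and of 1.38 ± 0.31 from day 7 (SE; adjusted p = 0.839). Neither was called. Between day 0 and day 14 the widest difference was 1.56, in a probe set of Itga9.

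**Figure D4:**
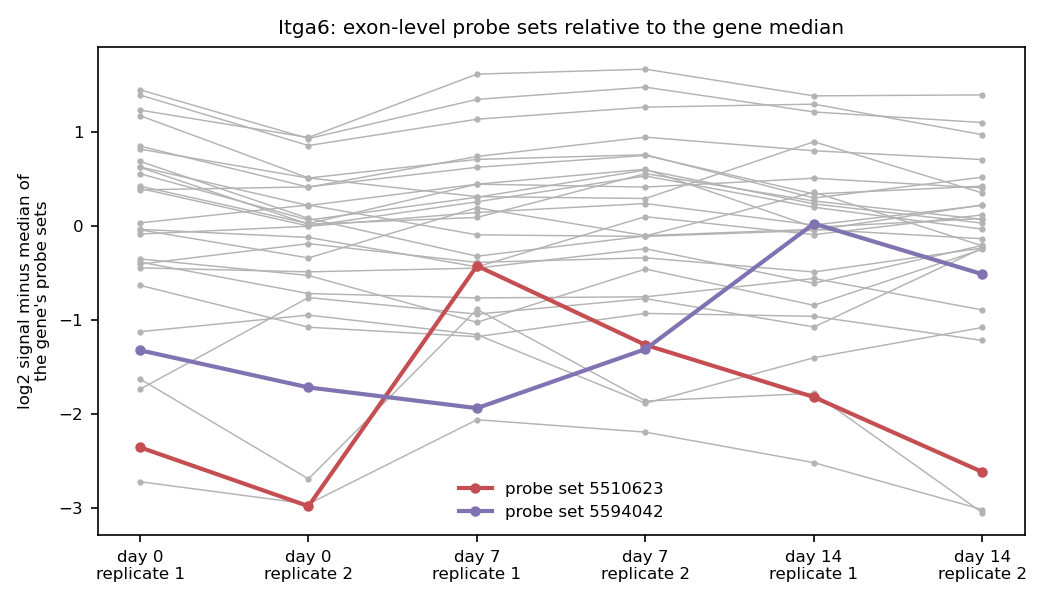
Usage of the 28 tested probe sets of Itga6 (log2 signal minus the median of the gene's probe sets in the same sample) in each of the 6 samples, with 1 line per probe set. Probe set 5510623 is nearer to the median in the day 7 samples than in any other, and probe set 5594042 in the day 14 samples, and the other probe sets are in grey.

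Genes for the proteins that link integrins to actin were called in part. Of 27 measured adaptors of focal adhesions, 7 rose and 1 fell at day 7, and 7 rose and none fell at day 14 against day 0. For this and the following lists, the background is the share of clusters called on the whole array, which was 5.35% up and 5.28% down at day 7, 2.63% up and 0.686% down at day 14 against day 0, and 2.11% up and 1.02% down from day 7 to day 14. The median change of the list was 0.29 at day 7 and 0.12 at day 14, and the same medians over all clusters were -0.02 and -0.03. Parva, which is in a complex with Ilk on the beta1 tail, rose by 3.49 ± 0.38 (SE; adjusted p = 0.00732) at day 7 and by 3.49 ± 0.38 (SE; adjusted p = 0.0116) at day 14. Its relative Parvb changed by -2.60 ± 0.51 (SE; adjusted p = 0.0345) at day 7. Ilk rose by 1.47 ± 0.20 (SE; adjusted p = 0.0129) at day 7. Fhl2, a LIM protein abundant in heart, rose at both steps, by 1.78 ± 0.23 (SE; adjusted p = 0.0107) from day 0 to day 7 and by 1.69 ± 0.23 (SE; adjusted p = 0.0246) from day 7 to day 14. Nexn, an actin-binding protein of the Z disc, gained 1.80 ± 0.24 (SE; adjusted p = 0.0256) in the second step, and Tgfb1i1, a paxillin relative, was 3.68 ± 0.40 (SE; adjusted p = 0.0115) above day 0 at day 14. Talin 1 (Tln1), which switches integrins on, changed by 0.07 and 0.42 and was not called. With any 1 sample left out, 1 to 5 adaptors rose at day 7, the fewest without replicate 1 of day 0 or of day 7, and 2 to 6 at day 14, the fewest without replicate 1 of day 0 or of day 14. The rises of Fhl2 and Nexn from day 7 to day 14 were both lost without either sample of day 7 or without replicate 1 of day 14, and at most 1 remained in any such fit. The fall of Parvb was called only without replicate 1 of day 7.

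Of 17 measured genes for signalling proteins downstream of integrins, 1 rose at day 7, beside 5.35% of all clusters, and the same gene fell from day 7 to day 14, beside 1.02%. That gene was Tes, a focal adhesion LIM protein, with a change of 1.92 ± 0.25 (SE; adjusted p = 0.0119) and then -1.53 ± 0.25 (SE; adjusted p = 0.0435). Src changed by 0.33 at day 7 and Bcar1, a docking protein phosphorylated by it, by 0.64 ± 0.17 (SE; adjusted p = 0.0811), not called. The median of the list was 0.16 at day 7. The rise of Tes was lost without either sample of day 0 or without replicate 2 of day 7, and its fall was lost with any 1 of the 6 samples left out.

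Of 21 measured partners of laminin in the basement membrane, 6 rose and 1 fell at day 7, and 4 rose at day 14 against day 0. The list's median was 0.50 and 0.38. From day 7 to day 14, 2 fell, Frem1 and Egflam, the latter by -1.30 ± 0.22 (SE; adjusted p = 0.0449 by limma). Col4a1, a collagen IV chain, rose by 1.76 ± 0.27 (SE; adjusted p = 0.0182) and 1.65 ± 0.27 (SE; adjusted p = 0.0395), and Col4a2, its partner in the same molecule, by 1.08 ± 0.20 (SE; adjusted p = 0.0304) and 1.34 ± 0.20 (SE; adjusted p = 0.0318). Fras1, which anchors embryonic epithelia, rose by 2.39 ± 0.43 (SE; adjusted p = 0.0272) and 2.65 ± 0.43 (SE; adjusted p = 0.0393). Frem1, of the same complex, rose by 3.56 ± 0.37 (SE; adjusted p = 0.00645) at day 7 and changed by -2.97 ± 0.37 (SE; adjusted p = 0.0210) from day 7 to day 14. Npnt, the ligand of the alpha8 integrin, measured 6.13 and 6.18 at day 0, 7.67 and 9.30 at day 7 and 8.63 and 8.39 at day 14, and its rise at day 7 was 2.33 ± 0.51 (SE; adjusted p = 0.0459). It was higher in all 4 later samples, but the day 7 replicates were on opposite sides of the day 14 ones. Ntn1, a laminin relative that guides axons, changed by -2.29 ± 0.30 (SE; adjusted p = 0.0119) at day 7. Nidogens and perlecan, which bind laminin directly, were not called at any stage, at -0.28 for Nid1, -1.02 for Nid2 and 0.03 for Hspg2 at day 7. With 1 sample left out, 1 to 5 of these genes rose at day 7, the fewest without either sample of day 0, and 0 to 3 at day 14, with 0 without any 1 sample of day 0 or of day 14. The fall of Ntn1 was lost without either sample of day 0 or without replicate 1 of day 7.

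Of 24 measured ligands of integrins other than laminins, 6 rose and 1 fell at day 7, and 7 rose and 1 fell at day 14 against day 0, with medians of 0.72 and 0.41. Thbs1, a ligand of the alphav integrins, rose by 3.40 ± 0.42 (SE; adjusted p = 0.00999) and 3.64 ± 0.42 (SE; adjusted p = 0.0132), and Tnc, which alpha8 and alpha9 bind, by 2.76 ± 0.42 (SE; adjusted p = 0.0178) and 2.97 ± 0.42 (SE; adjusted p = 0.0254). Ccn1 rose by 3.76 ± 0.39 (SE; adjusted p = 0.00627) at day 7. Postn, a fibroblast matrix protein bound by alphav integrins, measured 4.22 and 4.20 at day 0, 9.90 and 7.46 at day 7 and 6.17 and 6.27 at day 14, and its rise was 4.47 ± 0.75 (SE; adjusted p = 0.0225). Both day 7 samples were the highest, but replicate 1 lay far above replicate 2. Of the smooth muscle and fibroblast markers, Acta2, Pdgfrb, Pdgfra, Dcn and Lum were also higher in replicate 1 of day 7. Tagln, Cnn1 and Tcf21 were higher in replicate 2. The summed signal of the extraembryonic endoderm list was also higher in replicate 1 of day 7. The part of these cell types in Postn was not tested. Vtn, vitronectin, rose by 1.93 ± 0.19 (SE; adjusted p = 0.00755) by day 14. All 3 fibrinogen chains were higher at day 14 than at day 0, at 2.16 ± 0.22 (SE; adjusted p = 0.00931) for Fga, 3.61 ± 0.58 (SE; adjusted p = 0.0380) for Fgb and 2.25 ± 0.22 (SE; adjusted p = 0.00833) for Fgg. Icam1, the ligand of the integrin formed by Itgal, changed by -2.48 ± 0.23 (SE; adjusted p = 0.00459) at day 7 and -1.52 ± 0.23 (SE; adjusted p = 0.0301) at day 14. Fibronectin (Fn1) changed by 0.68 and -0.10 and was not called. With 1 sample left out, 1 to 5 ligands rose at day 7, the fewest without replicate 1 of day 0, and 0 to 7 at day 14, with 0 without either sample of day 0 or without replicate 1 of day 14. The fall of Icam1 at day 14 was lost with any 1 of the 6 left out.

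A list of laminin receptors other than integrins also held genes of proteins that act with them, such as sarcoglycans and Utrn. Of its 13 measured genes, 4 rose and 1 fell at day 7. At day 14 against day 0, 3 rose and 1 fell, and the medians were 0.04 and 0.90. Sgca, a sarcoglycan of striated muscle, stayed at -0.01 at day 7 and rose by 2.89 ± 0.30 (SE; adjusted p = 0.0129) from day 7 to day 14, as did Sspn of the same complex, by 2.15 ± 0.24 (SE; adjusted p = 0.0155). Sgce, a widely expressed sarcoglycan, rose by 2.98 ± 0.17 (SE; adjusted p = 0.00265) at day 7 and remained 2.71 above day 0 at day 14. Dystroglycan itself (Dag1) was 0.80 ± 0.24 (SE; adjusted p = 0.168) above day 0 and was not called. Sdc2, a syndecan, rose by 2.32 ± 0.26 (SE; adjusted p = 0.00775) at day 7, and Utrn, the dystrophin relative, by 1.77 ± 0.19 (SE; adjusted p = 0.00732). Rpsa changed by -1.61 ± 0.30 (SE; adjusted p = 0.0293), but it has many near-identical pseudogenes that array probes may share, so this value is uncertain. With 1 sample left out, 2 to 3 genes of this list rose at day 7 and 1 to 4 at day 14. Both were fewest without either sample of day 0. From day 7 to day 14, 0 to 3 rose, with 0 without either sample of day 7. The fall of Rpsa at day 7 was lost without any 1 sample of day 0 or of day 7.

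Among 12 measured tetraspanins and other membrane partners of integrins, 3 rose and 2 fell at day 7. Cd47, the partner of the alphav beta3 integrin, rose by 1.97 ± 0.19 (SE; adjusted p = 0.00525), Cd82 by 1.65 ± 0.22 (SE; adjusted p = 0.0122) and Cd151, the close partner of laminin-binding integrins, by 0.99 ± 0.18 (SE; adjusted p = 0.0289). Cd9, a partner of beta1 integrins, changed by -1.40 ± 0.22 (SE; adjusted p = 0.0199). Cd37, a leukocyte tetraspanin, measured 8.28 and 8.58 at day 0, 5.74 and 5.93 at day 7 and 7.78 and 8.04 at day 14. It was low in both day 7 samples only, falling by 2.59 on the log2 scale (SE 0.21; adjusted p = 0.00355) and rising by 2.07 ± 0.21 (SE; adjusted p = 0.0118) to day 14. At day 14 against day 0, 2 rose, Cd47 and Cd82. With any 1 of the 6 samples left out, none rose at day 14 and 1 to 3 rose at day 7, the fewest without either sample of day 0 or without replicate 1 of day 7. Of the falls at day 7, 1 to 2 were called, and the rise of Cd37 from day 7 to day 14 was lost without any 1 sample of day 7 or of day 14.

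**Figure D5:**
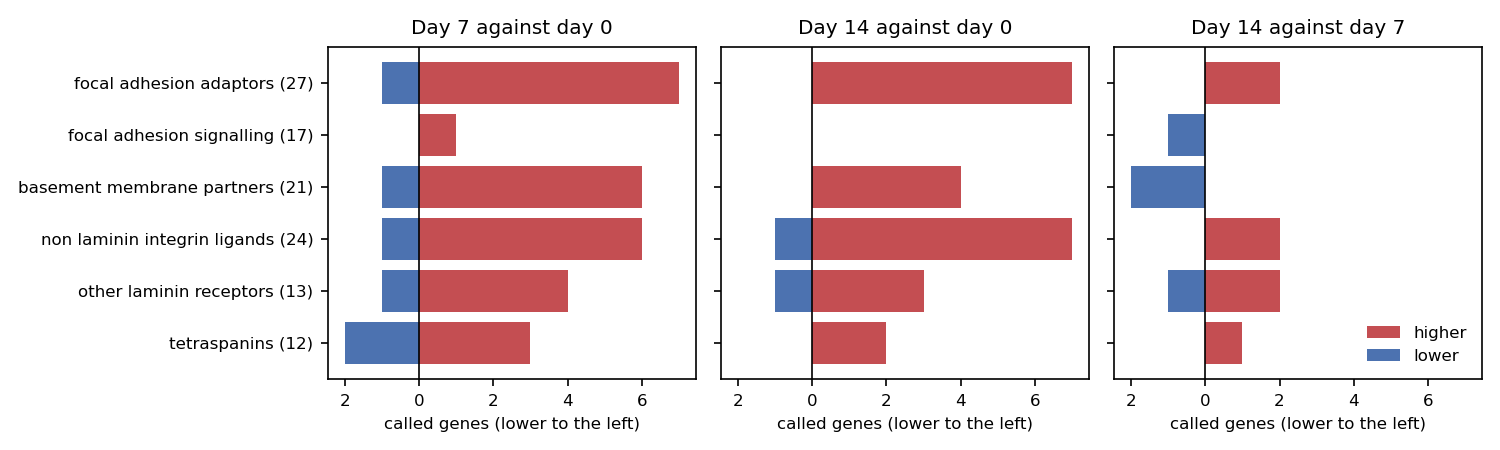
Number of measured genes higher (to the right) or lower (to the left) by limma in each of the 6 lists of integrin and laminin partners, for the 3 comparisons of stages. The lists differ in size, so the bars are counts and not shares. At day 7 the numbers higher are 7 of 27 adaptors, 1 of 17 signalling genes and 6 of 21 basement membrane partners. They are 6 of 24 ligands, 4 of 13 genes of other laminin receptors and their partners, and 3 of 12 tetraspanins and other membrane partners.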

How the data were processed

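RNA of 6 samples (2 each at days 0, 7 and 14) was hybridised to Affymetrix mouse exon arrays, and every sample was deposited at both levels, as 12 entries. The deposited values are log2 signals from the authors' RMA summary, which per the submitters' processing notes used Affymetrix Power Tools, from core probe sets on build mm9, per the labels. Software versions are not stated in those notes. No further normalization was applied. limma 3.58.1 in R 4.3.3 fitted all 6 samples together, with Benjamini-Hochberg adjustment over 23332 clusters and calls at 0.05. One row was kept per symbol, the one with the highest mean. Genes were named from the platform annotation, with 27 gene-level symbols updated through RefSeq; 1019 clusters with several symbols and 7317 with none stayed unnamed. Probe set usage was tested for genes with at least 4 probe sets, a gene median at or above the 50th percentile in both stages and a probe set mean at or above the 25th in at least 1 of them, and called at an absolute difference of at least 1. The fits were tested on simulated data with 200 changed rows. In the data 2481, 774 and 730 clusters were called at the gene level in the 3 comparisons. With fewer changed rows the adjustment is stricter, so the gene-level shares given here may understate recovery in the data. At the gene level, a log2 change of 1 was recovered in 0% of changed rows at day 7 against day 0. The share was 1.49% at day 14 against day 0 and 4.48% at day 14 against day 7. For a change of 2 the shares were 50.7%, 47.8% and 49.3%, in that order. For exon usage a change of 1 gave 0% in every comparison and a change of 2 gave 37.3%, 29.9% and 34.3%. Changes of 4 were recovered in 80.3% to 83.3%. An uncalled result does not exclude a change of 1 or 2. The genes and lists were chosen with earlier results of these data known, so no list is independent support. Within a list, called genes were described mainly from the 4 with the largest changes per comparison. Others were chosen for their role after their values were seen. Not all of the largest were described. Left out were Csrp1 (1.63 at day 7), and Col4a5 (1.41) and Rpsa (-1.91) at day 14 against day 0. From day 7 to day 14, Sdc1 (-1.44), Fga (1.94) and Fgg (2.18) were left out. Alternatives were centring, quantile normalization, a filter on dim clusters, an intensity trend, a fit of 2 stages only, a replicate block, the mean of probe sets and leaving out each sample.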

Additional observations from a re-analysis of the deposited data

How the results depend on the processing

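The changes of the 7 genes called at day 7 kept their direction under every alternative, and the number of calls did not. Higher at day 7 than at day 0 were 5 genes, and 5 again with samples centred on their medians, with quantile normalization, without clusters under the 25th percentile and with an intensity trend; 3 were with only the 2 stages fitted, 6 with the mean of exon-level probe sets, and 0 to 3 with 1 sample left out. Lower were 2, then 3 with the mean of probe sets (Itgal, Itgam and Itgb7), 1 with the 2 stages only and 0 to 1 with 1 sample left out. Higher at day 14 than at day 0 was none, but 1 with quantile normalization (Itgav), 3 without dim clusters (Itgav, Itgb1 and Lama2), 3 with the intensity trend, 3 with the mean of probe sets, and 0 to 1 with 1 sample left out. Lower was none, but 1 with centring and with quantile normalization (Lama1), 2 without dim clusters and with the mean of probe sets (Itgb7 and Lama1), and 0 to 1 with 1 sample left out. From day 7 to day 14, the mean of probe sets called 2 higher (Itgam and Lama2) and 1 lower (Itga8), centring called 1 lower (Itga8), and with 1 sample left out 0 to 1 were higher. With the mean of probe sets and with the dim filter fewer features were tested; for the other settings the cause was not tested. Exon usage had 0 calls under every alternative, including one added after seeing the data that left out probe sets that never vary. Over all clusters the calls numbered 2481, 774 and 730 in the 3 comparisons, against 3266, 1510 and 1589 genes with the mean of probe sets, 310 for days 7 and 14 fitted alone, and lowest values of 634, 155 and 126 with 1 sample left out. Uncalled differences near 0 changed sign with 1 sample left out. Itga5 ranged from -0.324 to 0.0133 at day 7 and from -0.198 to 0.0419 at day 14, both against day 0, and from -0.0913 to 0.246 at day 14 against day 7. Itga6 ranged from -0.29 to 0.0132 at day 14 against day 0. Between day 7 and day 14 Itgav ranged from -0.538 to 0.00913 and Lamc1 from -0.0469 to 1.00. Deviations of samples with the same replicate number correlated at 0.083 between days 0 and 7, 0.486 between days 0 and 14 and 0.091 between days 7 and 14, and at the exon level at -0.00379, 0.418 and 0.0254. The numbers therefore show no pairing that runs through all 3 stages, though samples of days 0 and 14 with the same number deviated together. A replicate block gave 6 genes higher (Lama4 added) and 2 lower at day 7 and none at day 14.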
